A study of Mus musculus with 12 samples.

Results

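The nuclear genes of mitochondrial oxidative phosphorylation were taken from a whole-transcriptome array study of CD4 T cells of the mouse small-intestinal epithelium. A probe belonged to the set when its gene name, ignoring case, began with Ndufa, Ndufb, Ndufc, Ndufs, Ndufv, Sdha, Sdhb, Sdhc, Sdhd, Uqcr, Atp5 or one of the cytochrome c oxidase prefixes from Cox4 to Cox8. This gave 95 of 25697 probes, for 77 of 17916 genes. By function, 33 of the genes encode complex I, 3 complex II, 6 complex III, 16 complex IV and 14 complex V. Ndufa4, named for complex I but counted today with complex IV, was kept apart. The other 4 encode no subunit of a complex. They are Ndufaf1 and Atp5sl (now Dmac2), both complex I assembly factors, Atp5s (now Dmac2l), the coupling factor B gene, and Cox4nb (now Emc8), which encodes a part of an endoplasmic reticulum membrane complex.

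Intraepithelial CD4 T cells of ThPOK-GFP reporter mice, in which green fluorescent protein follows the helper-lineage transcription factor ThPOK, had been sorted on the reporter and on CD8a. The ThPOK+CD8a- subset is called ThPOK+ cells here, and the ThPOK-negative subsets without and with CD8a are called CD8a- and CD8a+ cells. The series asked what distinguishes cells that have lost ThPOK, with or without CD8a, from those that keep it. Cells labelled WT came from reporter mice that had undergone no experiment, and cells labelled TR from RAG-/- recipients, which lack T and B cells of their own, after transfer of naive reporter CD4 T cells as a model of colitis. All mice carried the reporter or received its cells, the labelled strain was B6-ThPOK-GFP, and the labelled age was 10 to 12 weeks. The 6 groups of host and subset were measured in duplicate, and the 3 arrays of 1 host and replicate number are called a set below. Values of 4 arrays or sets are listed in the order WT replicate 1, WT replicate 2, TR replicate 1, TR replicate 2.

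Oxidative phosphorylation couples the oxidation of NADH and succinate to the synthesis of ATP. Complexes I and II pass electrons to ubiquinone, complex III passes them on to cytochrome c, and complex IV hands them to oxygen, while the protons pumped by complexes I, III and IV drive complex V, the ATP synthase. T cells depend on this chain when they divide after activation, and long-lived memory and tissue-resident T cells are known for feeding it with fatty acids. Most subunits are encoded in the nucleus, and those encoded in mitochondrial DNA are outside the set.

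Arrays differed by replicate number before any subset was considered. Replicate 1 had lower median raw signals than replicate 2 (113.6 to 130.8 against 206.7 to 246.2) and more detected probes (12024 to 13091 against 6721 to 8195). Of the 95 probes of the set, between 81 and 85 were detected per array in replicate 1 and between 65 and 75 in replicate 2. The 11 measured T cell markers had a mean log2 signal of 9.67 to 10.14 on the 12 arrays, with 9 to 11 of them detected. The deposited tables disagree on the host of replicate 1, so subsets were compared within sets, which does not depend on the host.

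The genes of the set were widely detected. A probe counted as detected at a detection p under 0.05, and a gene was tested when a probe was detected on at least 2 of the 12 arrays. This held for 72 of the 77 genes (93.5%), against 59.2% of all genes on the array. For 50 of them (64.9%, against 19.8% of all genes) a probe was detected on 12 of 12 arrays. All genes of complexes I, II, III and V passed, and 11 of 16 of complex IV. Beads per probe numbered 16 to 78, with a median of 39.

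The promoters of 3 genes with some of the larger subset differences below, none past the threshold in any comparison, are shown. Each window runs from 250 bases before to 30 after the start of transcription, on the plus strand of GRCm38.p6 as given by RefSeq. Ndufs7 lies at chr10:80249199-80249478, Ndufb7 at chr8:83566508-83566787 and Sdhb at chr4:140961021-140961300. Capitals mark the letters CCGGAAG, the core site of ETS factors such as GABPA, a known regulator of respiratory chain genes.
Ndufs7: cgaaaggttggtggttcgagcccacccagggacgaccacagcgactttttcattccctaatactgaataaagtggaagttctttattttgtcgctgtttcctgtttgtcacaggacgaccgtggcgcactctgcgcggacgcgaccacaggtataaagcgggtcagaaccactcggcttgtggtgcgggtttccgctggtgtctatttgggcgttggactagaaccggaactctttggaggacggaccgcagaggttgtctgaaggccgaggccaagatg
Ndufb7: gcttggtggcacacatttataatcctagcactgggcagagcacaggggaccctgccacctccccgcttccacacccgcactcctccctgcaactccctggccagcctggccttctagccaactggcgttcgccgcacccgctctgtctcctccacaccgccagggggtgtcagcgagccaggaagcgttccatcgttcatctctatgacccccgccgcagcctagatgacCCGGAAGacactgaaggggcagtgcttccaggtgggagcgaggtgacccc
Sdhb: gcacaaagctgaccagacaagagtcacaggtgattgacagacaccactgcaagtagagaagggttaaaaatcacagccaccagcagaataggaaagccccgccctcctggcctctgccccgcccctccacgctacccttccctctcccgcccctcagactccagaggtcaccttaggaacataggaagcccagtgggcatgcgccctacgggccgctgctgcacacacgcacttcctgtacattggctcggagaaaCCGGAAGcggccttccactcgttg

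The match began 20 bases before the start in Ndufb7 and at base 7 after it in Sdhb, and the window of Ndufs7 held none. RefSeq windows were matched for 63 of the 77 genes, on 18 chromosomes. On either strand, CCGGAAG lay in the windows of 16 of the 63 (25.4%), against 9.48% of all 27025 genes with a window and 19.2% of the 8060 that passed the detection filter. The site of the transcription factor NRF1, searched as GCGCANGCG, lay in 16 of 63 (25.4%), against 6.76% and 13.8%. The YY1 site, searched as AAGATGGCG, lay in 2 of 63 (3.17%), against 1.22% and 2.46%. No motif of the 3 was found in 36 of the 63 genes. Neither the NRF1 nor the YY1 letters lay in the 3 promoters shown. The median GC content of the windows was 57.1% in the set, 52.5% over all windows and 59.6% over those of detected genes. These shares describe letters in the windows and were not tested.

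No gene of the set passed the threshold between any of the sorted subsets. Between CD8a+ and ThPOK+ cells, 0 of the 72 tested genes were called (limma blocked on the set, with p adjusted over all 10612 genes to a threshold of 0.05), where 60 genes (0.565%) were called over the array. At an unadjusted p under 0.05 there were 8 of 72, 7 with a positive and 1 with a negative difference, against 9.79% of all genes. The median difference was 0.029 on the log2 scale over the set and 0.003 over all genes. Of the 72, 40 had a positive and 32 a negative difference. The 95% interval of the difference lay within a 2-fold change either way for 62 of the 72 (86.1%, against 71.1% of all genes) and within 1.5-fold for 36. In such bulk samples, fewer cells of a type and less RNA per cell cannot be told apart.

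**Figure D1:**
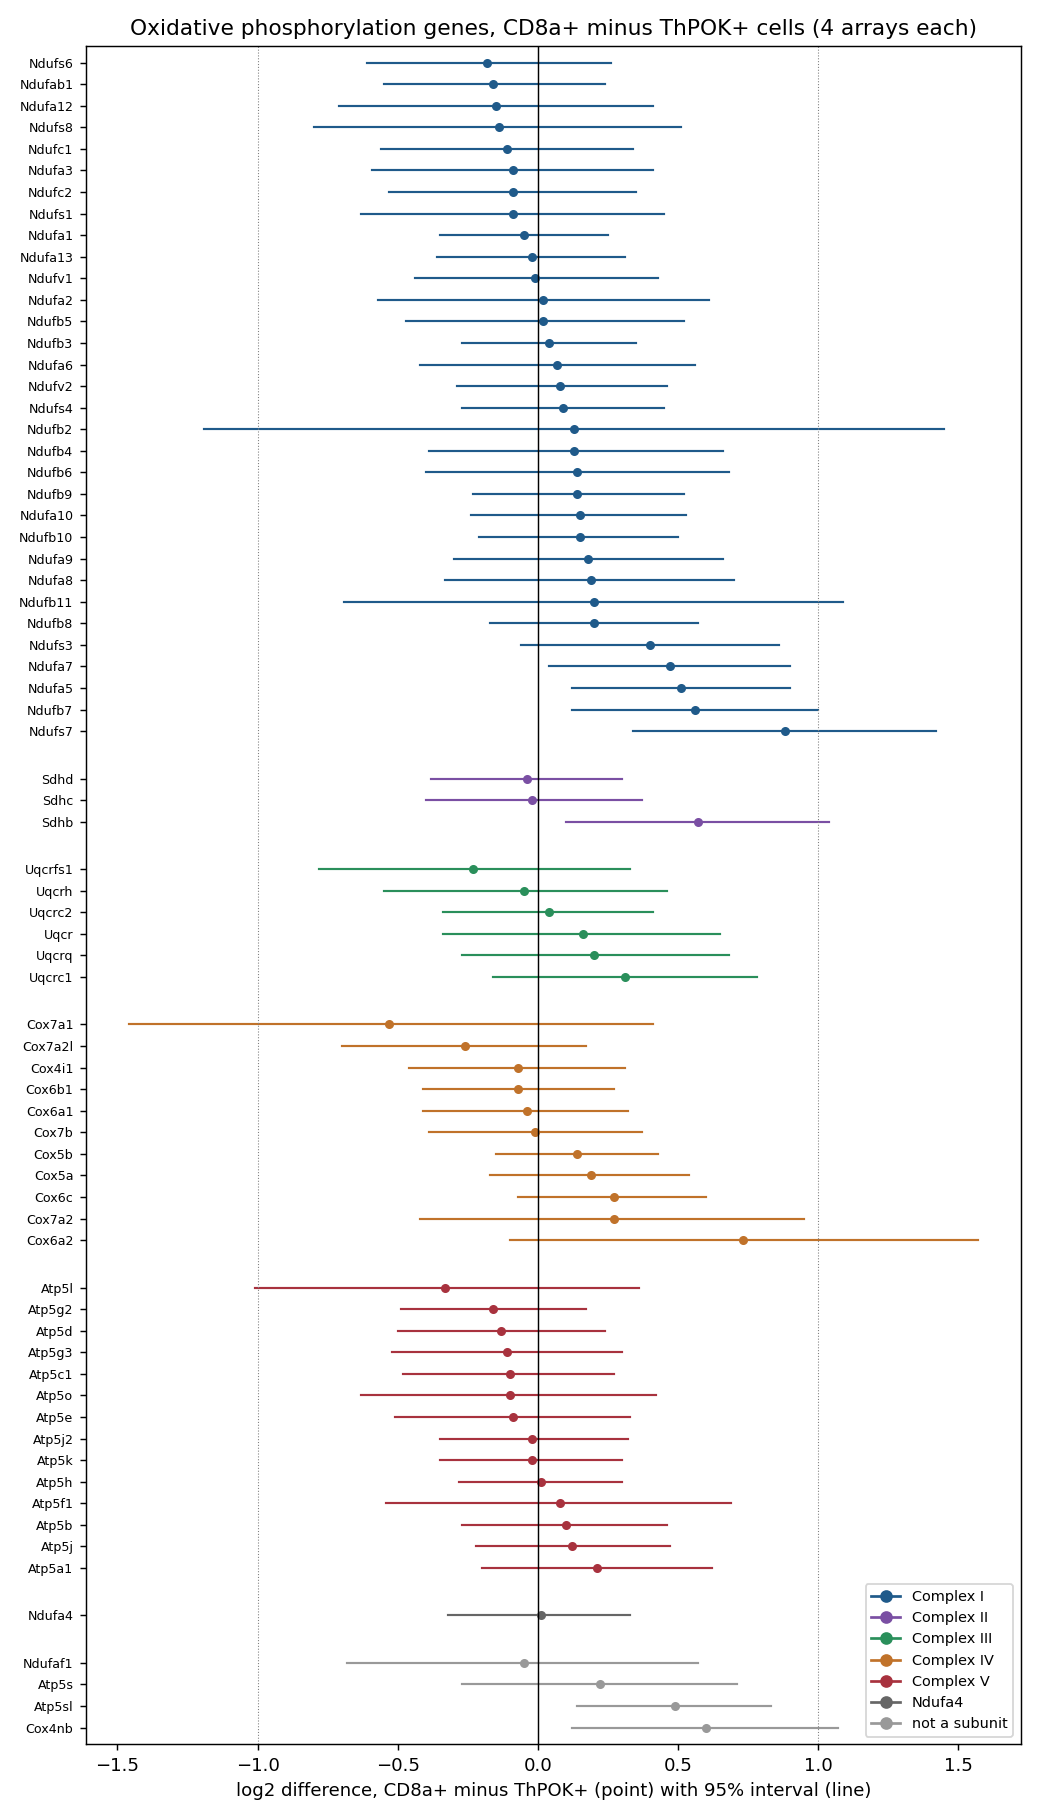
Log2 difference between CD8a+ and ThPOK+ cells (x axis) for tested genes (y axis, grouped by complex), as a point with its 95% interval from limma, 4 arrays per subset. Dotted lines mark a 2-fold change. Points lie between -0.53 (Cox7a1) and 0.88 (Ndufs7), and no gene passed the adjusted threshold.

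Against the same ThPOK+ arrays, CD8a- cells gave the same count. Of the 72 genes 0 were called, where 6 of all genes (0.0565%) were, and 4 had an unadjusted p under 0.05 against 8.65% of all genes. The median difference was -0.011 over the set and 0.005 over all genes, and the interval lay within 2-fold for 65 of the 72. Between CD8a+ and CD8a- cells, limma called 0 of the 72 and 0 of all genes (0.0%), with 3 of the 72 and 5.1% of all genes at an unadjusted p under 0.05. Here 51 of the 72 had a positive difference, with a median of 0.073 against -0.007 over all genes. The set medians of this comparison were 0.061, 0.271, 0.019 and 0.009. The higher value of WT replicate 2 rested on the array of WT CD8a+ replicate 2, and without that array the median was 0.006, and that of CD8a+ against ThPOK+ cells was -0.016 in place of 0.029.

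Complex I, which oxidises NADH, held the highest difference of the set in CD8a+ against ThPOK+ cells, that of Ndufs7. In this comparison 21 of its 33 genes had a positive and 12 a negative difference, with a median of 0.084. Ndufs7 encodes a core subunit that carries the last iron-sulfur cluster before ubiquinone. Its log2 signal was 7.38, 6.28, 7.02 and 6.73 in ThPOK+ cells, 7.37, 7.86, 7.71 and 7.43 in CD8a- cells and 7.66, 7.85, 7.71 and 7.72 in CD8a+ cells. Every CD8a+ array lay above every ThPOK+ array, while the CD8a- arrays overlapped both. The difference from ThPOK+ cells was 0.88 ± 0.24 (SE, 1.84-fold, n = 4 per subset, limma adjusted p = 0.193) in CD8a+ cells, positive in 4 of 4 sets, and 0.74 ± 0.24 (adjusted p = 0.422) in CD8a- cells.

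Ndufb7, which encodes an accessory subunit of the membrane arm, had log2 signals of 5.81, 5.91, 5.70 and 5.48 in ThPOK+ cells and 5.95, 6.97, 6.08 and 6.14 in CD8a+ cells. The groups did not overlap, but the probe was detected on 7 of the 12 arrays, 6 of replicate 1 and 1 of replicate 2. The difference was 0.56 ± 0.20 (adjusted p = 0.356), with CD8a- cells at 5.89, 6.85, 5.95 and 6.44 and a difference of 0.56 ± 0.20 (adjusted p = 0.469). Over the set, 3 genes had CD8a+ arrays that did not overlap the ThPOK+ arrays, all 3 higher in CD8a+ cells (4.17%, against 3.05% of all genes in either direction). The last of these was Atp5sl, an assembly factor of complex I, at 7.49, 7.92, 7.52 and 7.92 in ThPOK+ and 8.18, 8.16, 8.31 and 8.15 in CD8a+ cells. Its difference was 0.49 ± 0.15 (adjusted p = 0.294).

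Ndufa5, an accessory subunit of the arm that carries electrons from NADH to ubiquinone, had log2 signals of 7.91, 8.46, 8.0 and 7.65 in ThPOK+ cells, 8.35, 8.33, 7.87 and 8.06 in CD8a- cells and 8.46, 8.63, 8.33 and 8.62 in CD8a+ cells. The highest ThPOK+ array lay within the CD8a+ values and the other 3 below them. The difference between CD8a+ and ThPOK+ cells was 0.51 ± 0.17 (adjusted p = 0.346), positive in 4 of 4 sets. A dimmer probe of Ndufa5, detected on 9 of the 12 arrays, gave a smaller difference of 0.19 ± 0.20. In that arm, Ndufa7 was at 0.47 ± 0.19 (adjusted p = 0.453) and the core subunit Ndufs3 at 0.40 ± 0.20 (adjusted p = 0.575). Differences there did not all go 1 way, with Ndufs8, Ndufs1 and Ndufv2 at -0.14, -0.09 and 0.08 in the same comparison. Ndufv1, whose product binds NADH, differed by -0.01 in CD8a+ and by -0.34 in CD8a- cells, and the zinc-binding subunit Ndufs6 by -0.18 in CD8a+ cells. Ndufb2, another membrane-arm subunit, had the widest spread among CD8a- arrays of the complex after Ndufb11, from 5.55 to 8.87, and differed by -0.47 there.

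Ndufb11, an X-linked subunit of the membrane arm, gave opposite answers by probe. In CD8a- against ThPOK+ cells, its brighter probe differed by 0.56 and its dimmer probe by -0.75, and each was detected on 4 of 12 arrays. The brighter probe read 4.95 to 5.44 in replicate 1 and 6.21 to 8.54 in replicate 2, with no overlap between the replicate numbers. Of the 13 genes with several tested probes, 6 had probes of opposite sign in CD8a+ against ThPOK+ cells (Atp5j, Cox6a1, Ndufb11, Ndufc1, Ndufs4 and Sdhc), 5 in CD8a- against ThPOK+ cells and 4 between the ThPOK-negative subsets. Fitted singly, 0 of the 89 tested probes passed the threshold in any of these comparisons.

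**Figure D2:**
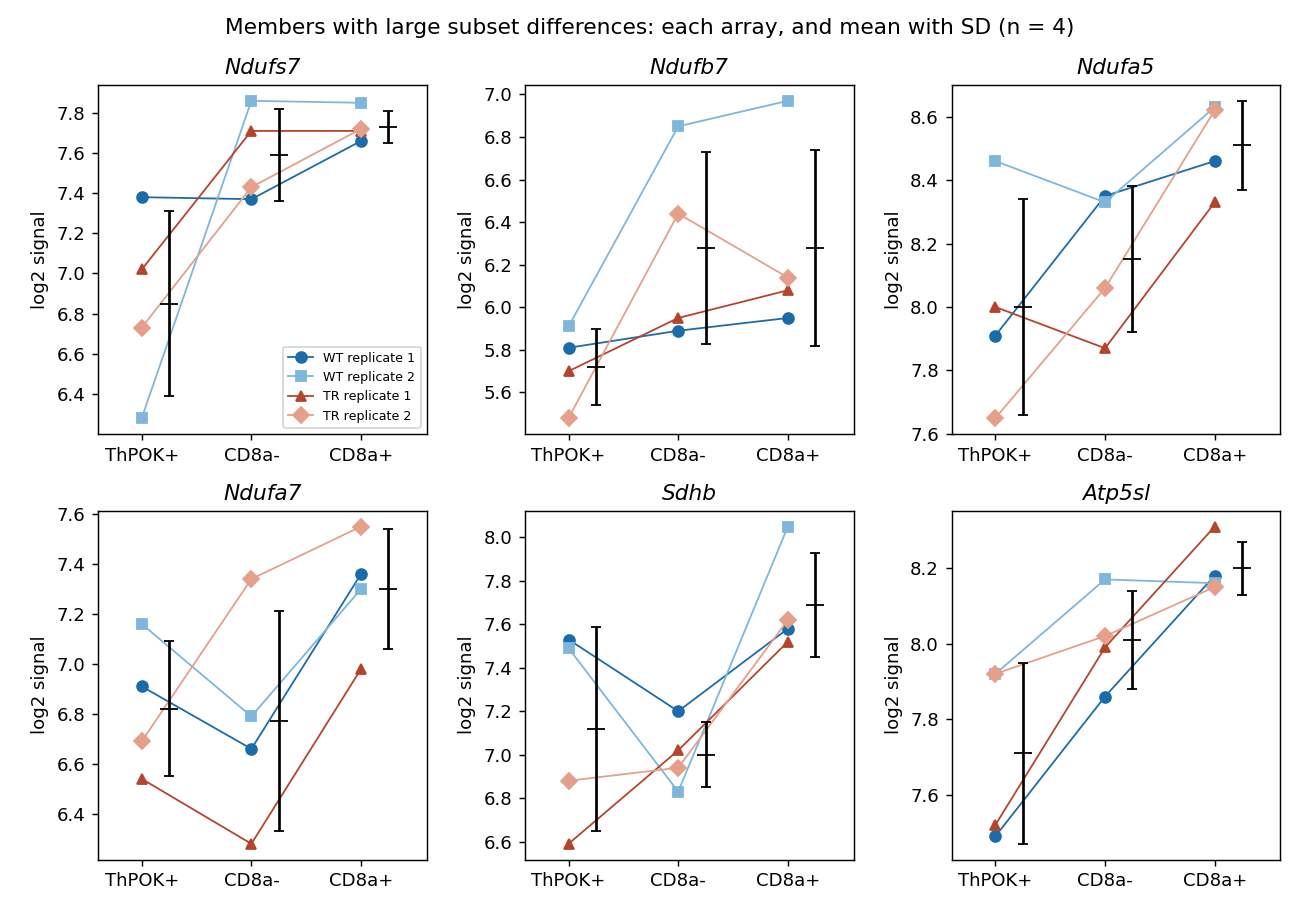
Log2 signal (y axes) of 6 genes on each of the 12 arrays by sorted subset (x axes), with lines joining the arrays of a set and black bars giving the mean and SD of 4 arrays. Ndufs7, Ndufb7 and Atp5sl show CD8a+ arrays above all ThPOK+ arrays, and Sdhb shows CD8a+ arrays above all CD8a- arrays.

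Complex II, succinate dehydrogenase, which also serves the tricarboxylic acid cycle, had 3 measured genes, and Sdha was not analysed here. Sdhb encodes the iron-sulfur subunit. It had log2 signals of 7.53, 7.49, 6.59 and 6.88 in ThPOK+ cells, 7.20, 6.83, 7.02 and 6.94 in CD8a- cells and 7.58, 8.05, 7.52 and 7.62 in CD8a+ cells. All CD8a+ arrays lay above all CD8a- arrays and overlapped the ThPOK+ arrays at the top. Between CD8a+ and CD8a- cells the difference was 0.70 ± 0.21 (1.62-fold, limma adjusted p = 0.895). Sdhb was the only gene of the set without overlap there (1.39%, against 1.33% of all genes). Its 3 probes, detected on 6, 11 and 12 of 12 arrays, gave 0.24, 0.70 and 0.38 there. The probe used was thus the one with the largest difference. Against ThPOK+ cells the difference was 0.57 ± 0.21 (adjusted p = 0.39), and the 3 probes gave 0.29, 0.57 and 0.39. The membrane anchors Sdhc and Sdhd differed by -0.02 and -0.04 between CD8a+ and ThPOK+ cells and by -0.24 and 0.01 between CD8a- and ThPOK+ cells. Of the 3 genes, 0 were called.

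Complex III genes ranged from -0.23 to 0.31 in CD8a+ against ThPOK+ cells, with 4 of 6 positive. The highest was Uqcrc1, a core protein gene (0.31 ± 0.21, adjusted p = 0.697), at 8.23, 7.43, 7.13 and 7.53 in ThPOK+ and 8.54, 8.08, 7.78 and 7.17 in CD8a+ cells, groups that overlapped. The lowest was Uqcrfs1, which encodes the Rieske iron-sulfur protein, at -0.23. Uqcrq, a small accessory subunit, was detected on 2 of 12 arrays, 1 of CD8a- and 1 of CD8a+ cells, and passed the filter only through these. Its CD8a- arrays did not overlap its ThPOK+ arrays, the only such gene of the set in that comparison (1.39%, against 2.68% of all genes), with a mean difference of 0.22 that is given with no test. The hinge protein gene Uqcrh differed by -0.05 in CD8a+ cells, and Uqcr, now Uqcr11, by -0.21 in CD8a- cells, the lowest of the complex there.

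In complex IV, which reduces oxygen, 8 genes of common subunits were detected on every array, and the isoforms known from muscle, testis or lung on 0 to 3 of the 12. Cox4i1, Cox6a1, Cox6b1, Cox7a2l, Cox7b, Cox5a, Cox5b and Cox6c were each detected on 12 of 12 arrays. Cox4i2 (lung), Cox6b2, Cox7b2 and Cox8c (testis) were detected on 0 of 12, at raw signals up to 228.3, and Cox8b (heart and muscle) on 1 of 12, WT CD8a+ replicate 2. The heart and muscle isoform Cox6a2 was detected on 2 of 12 arrays, both labelled WT CD8a+, at log2 signals of 5.91 and 7.31 for replicates 1 and 2. The arrays labelled TR CD8a+ read 4.82 and 5.25, and the other 8 arrays 4.88 to 5.27. Because the deposited tables disagree on the host of replicate 1, the 2 arrays that detected it may not share a host. The gene passed the detection filter only through these 2 arrays, so its mean difference of 0.73 between CD8a+ and ThPOK+ cells is given as a description, with no test. Cox7a1, also of heart and muscle, was detected on 3 arrays, all of replicate 1 and none of CD8a+ cells. Its ThPOK+ arrays read 6.84, 5.0, 6.43 and 5.10, and its mean difference was -0.53, likewise a description because no CD8a+ array carried it through the filter. On the arrays of replicate 2 alone it was 0.53. Cox7a2, the isoform of most tissues, was detected on the 6 arrays of replicate 1 and on none of replicate 2.

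**Figure D3:**
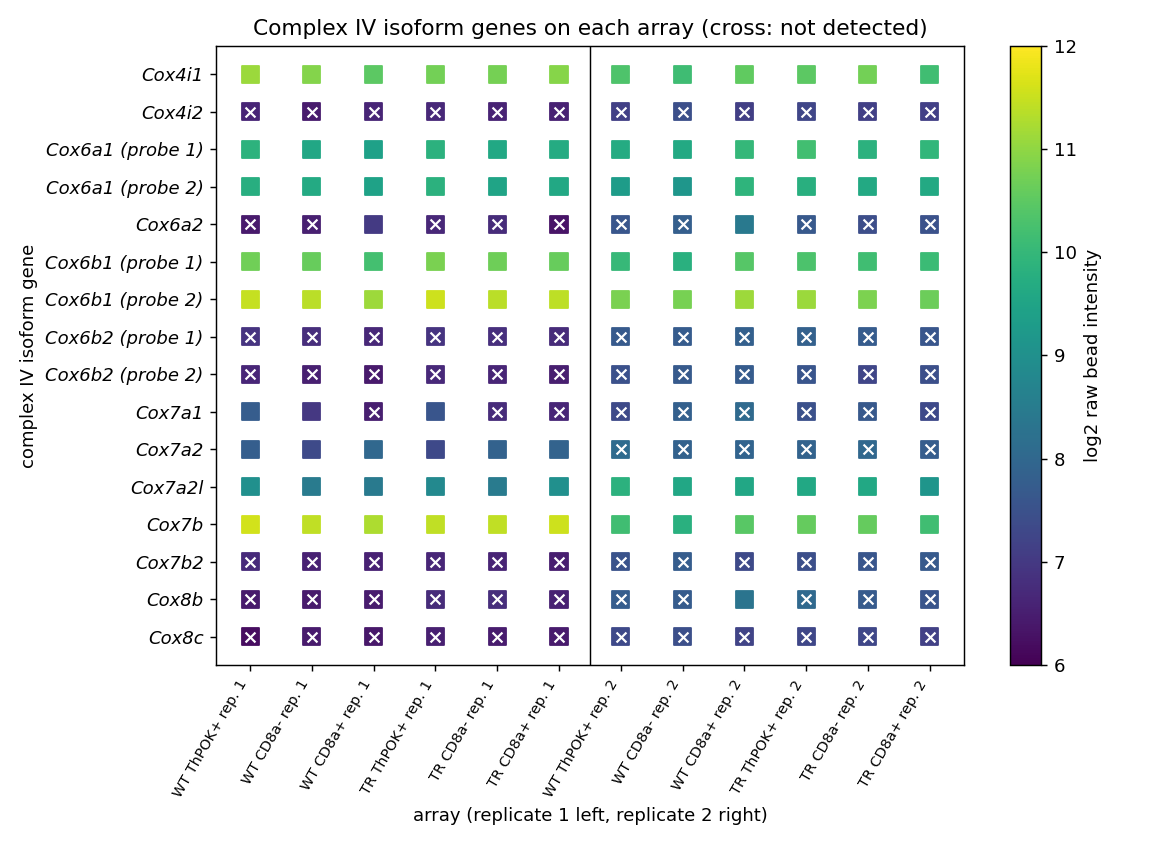
Raw bead intensity on the log2 scale (colour) of the probes of complex IV isoform genes (y axis) on each of the 12 arrays (x axis), with a cross where the probe was not detected. Probes of Cox4i2, Cox6b2, Cox7b2 and Cox8c were detected on 0 arrays, Cox6a2 on 2 and Cox7a1 on 3.

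The tested genes of complex IV had a median difference of -0.012 between CD8a+ and ThPOK+ cells and -0.049 between CD8a- and ThPOK+ cells. Cox6c, a subunit with a single common form, differed by 0.27 ± 0.15 (adjusted p = 0.619) in CD8a+ cells, and Cox4i1, Cox6b1 and Cox6a1 by -0.07, -0.07 and -0.04. Cox7a2l, which encodes a factor that joins complexes III and IV into supercomplexes, differed by -0.26 ± 0.19 (adjusted p = 0.722) in CD8a+ and -0.34 ± 0.19 (adjusted p = 0.656) in CD8a- cells. Its log2 signals did not overlap between replicate 1 (7.76 to 8.57) and replicate 2 (8.92 to 9.91). Ndufa4 differed by 0.01 and 0.00 in the same comparisons, at 10.23 to 10.83 on all 12 arrays.

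Complex V, the ATP synthase, had differences from -0.33 to 0.21 over 14 genes in CD8a+ against ThPOK+ cells, with a median of -0.056. In CD8a- cells 10 of the 14 had a negative difference, with a median of -0.105. Atp5g2 encodes the proton-carrying c subunit of the rotor. Its log2 signals were 8.28, 8.85, 7.91 and 8.73 in ThPOK+ cells and 7.89, 8.51, 7.62 and 8.41 in CD8a- cells. The groups overlapped because replicate 2 read higher than replicate 1, but within the sets the differences were -0.39, -0.35, -0.29 and -0.32, a mean of -0.33 ± 0.15 (adjusted p = 0.574). Atp5g3, another gene of the same subunit, differed by -0.21 in CD8a- cells, with -0.89, 0.02, 0.10 and -0.08 in the sets. In CD8a+ cells Atp5g2 and Atp5g3 differed by -0.16 and -0.11. The largest negative difference of the complex in both comparisons was that of Atp5l, subunit g of the membrane part, at -0.33 in CD8a+ and -0.58 ± 0.30 (adjusted p = 0.636) in CD8a- cells. The genes of the catalytic head, Atp5a1 and Atp5b, differed by 0.21 and 0.10 in CD8a+ cells.

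The subsets overlapped in the median of every complex. Each gene was centred on its mean over the 12 arrays and the median was taken over the genes of a complex. For complex I this gave 0.11, -0.02, -0.10 and -0.03 in ThPOK+ cells, 0.05, -0.15, -0.02 and -0.01 in CD8a- cells and 0.14, 0.32, 0.03 and -0.08 in CD8a+ cells. For complex V the values were 0.16, -0.02, -0.12 and 0.02, then 0.02, -0.01, -0.04 and -0.03, then -0.10, 0.26, -0.02 and 0.01. Over all 72 genes the highest medians were 0.24 on the array of WT CD8a+ replicate 2, 0.15 on WT CD8a+ replicate 1 and 0.13 on WT ThPOK+ replicate 1.

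Markers of intestinal epithelium, which surrounds these T cells, were highest on the same 3 arrays. The mean log2 signal of the 17 measured epithelium markers was 8.92 on WT CD8a+ replicate 2, 7.57 on WT CD8a+ replicate 1 and 9.16 on WT ThPOK+ replicate 1, against 5.76 to 7.46 on the other 9 arrays, and 3 to 17 of the 17 were detected per array. Of the 12 measured Paneth and goblet markers, 0 to 12 were detected, with means of 9.66, 6.52 and 9.28 on those 3 arrays and 5.32 to 8.03 on the others. The highest of the others in both lists was WT ThPOK+ replicate 2 (7.46 and 8.03), where the median over all 72 genes was -0.04. A link between these markers and the medians was not tested. With the epithelium mean as a covariate, the median difference of the set was 0.052 between CD8a+ and ThPOK+ cells, 0.063 between CD8a- and ThPOK+ cells and 0.008 between CD8a+ and CD8a- cells, and 0 genes of the set were called.

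**Figure D4:**
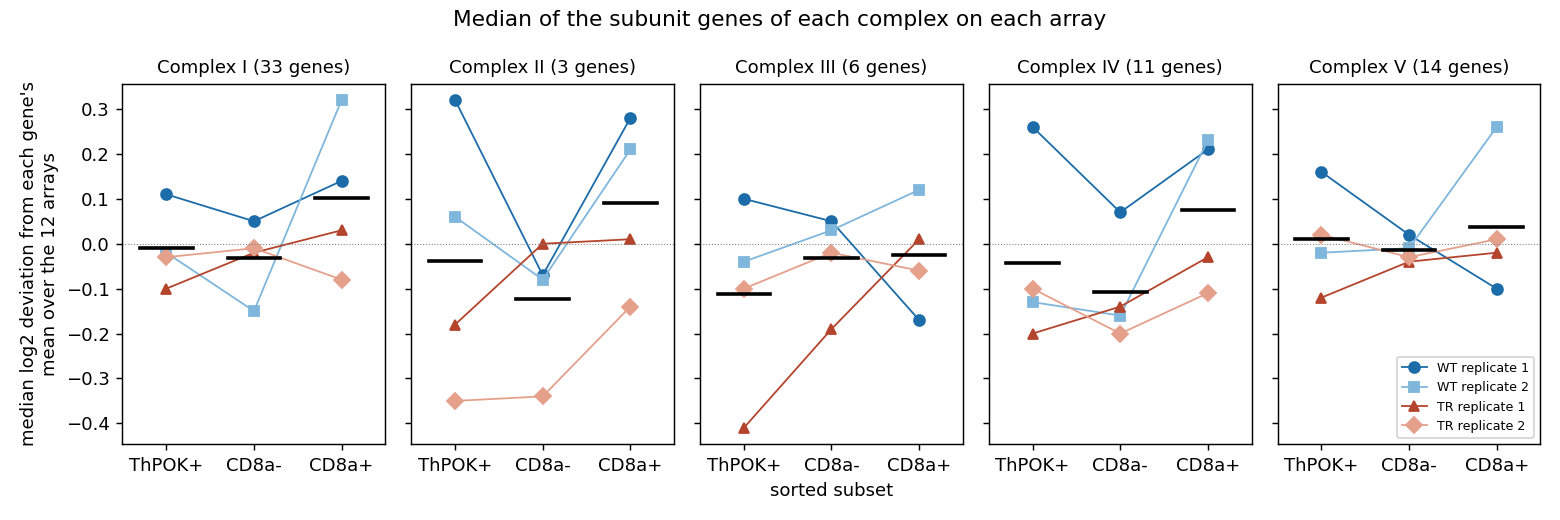
Median log2 deviation of the subunit genes of each complex from their means over the 12 arrays (y axis) on each array, by sorted subset (x axis) with lines joining the arrays of a set and black bars giving the mean of 4 arrays. WT CD8a+ replicate 2 is the highest array for complexes I (0.32) and V (0.26), and the subsets overlap in all 5 complexes.

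Differences between the replicate numbers were larger than those between the subsets. The median size of the difference between the 6 arrays of replicate 2 and the 6 of replicate 1 was 0.34 over the set (0.42 over all genes), against 0.14 (0.20) between CD8a+ and ThPOK+ cells. Of the 72 genes, 24 (33.3%) went the same way in all 6 groups, against 32.1% of all genes, and 3 (4.17%, against 13.6%) differed by more than 1 on the log2 scale. These were Ndufb11 at 2.03, Cox7a2l at 1.29 and Cox7a2 at -1.03.

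**Figure D5:**
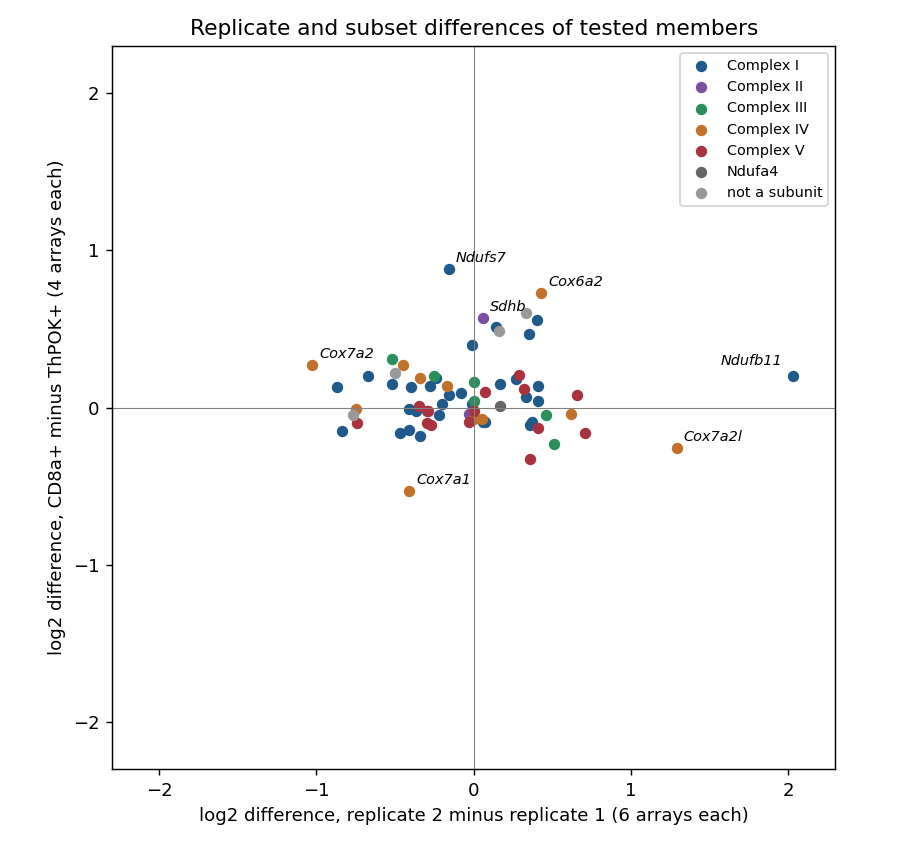
Log2 difference between replicates 2 and 1 (x axis, 6 arrays each) and between CD8a+ and ThPOK+ cells (y axis, 4 arrays each) for tested genes, coloured by complex. Points spread from -1.03 to 2.03 along the replicate axis and from -0.53 to 0.88 along the subset axis.

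Other mitochondrial gene lists gave no calls between CD8a+ and ThPOK+ cells either, with 0 called of 9 complex I assembly genes (Ndufaf1 among them), 6 genes of cytochrome c and complex III assembly, 12 of complex IV assembly, 4 of ATP synthase assembly, 15 of the tricarboxylic acid cycle, 13 regulators of mitochondrial biogenesis, 8 carriers and pores, 11 of fatty acid oxidation and 68 of the mitochondrial ribosome. Their median differences lay between -0.192 (cytochrome c and complex III assembly) and 0.111 (complex I assembly). Acadl, the long-chain acyl-CoA dehydrogenase gene of fatty acid oxidation, had a difference of 1.05 ± 0.21 (adjusted p = 0.0696), with 1.37, 1.21, 0.70 and 0.93 in the sets. Acadvl of the same list differed by -0.46 ± 0.25 (adjusted p = 0.605). Of the 11 genes of that list, 6 had a positive and 5 a negative difference, with a median of 0.035. Nubpl, which delivers iron-sulfur clusters to complex I, differed by 0.82 ± 0.21 (adjusted p = 0.163), positive in the 4 sets at 0.50, 1.42, 0.51 and 0.87. Cycs, the cytochrome c gene, differed by -0.62 ± 0.25 (adjusted p = 0.445). Of the 13 biogenesis regulators, 6 had a positive and 7 a negative difference. Polg2 was at -0.65 ± 0.24 (adjusted p = 0.383), negative in the 4 sets. Tfam, which packages and transcribes mitochondrial DNA, was at 0.44 ± 0.19 (adjusted p = 0.502). In the mitochondrial ribosome, Mrpl38 differed by -0.97 ± 0.26 (adjusted p = 0.183) and Mrpl55 by 0.73 ± 0.23 (adjusted p = 0.29). Detection limits several of these genes: Nubpl, Cycs and Polg2 were detected on 6 of 12 arrays, Mrpl38 on 7 and Mrpl55 on 5.

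Between hosts, limma on the 4 set means called 0 of the 72 genes and 0 of all genes (0.0%), with 0 of the 72 and 1.73% of all genes at an unadjusted p under 0.05. The median difference of TR from WT cells was -0.106 over the set and 0.029 over all genes, and 51 of the 72 were negative. With the hosts of replicate 1 exchanged, as the other deposited table has them, the median was 0.054 and 23 of the 72 were negative. With the hosts as labelled, the 95% interval lay within 2-fold for 27 of the 72 genes and 2486 of all 10612. With the replicate number as a block, which left the differences as they were, it lay within 2-fold for 63 of the 72 and 7646 of the 10612, and again 0 genes were called. On only 4 set means, the block left fewer residual degrees of freedom than the fit without it. It was not run with the hosts of replicate 1 exchanged, so these counts hold only for the hosts as labelled.

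Whether the difference between CD8a+ and ThPOK+ cells itself differed by host was tested as an interaction, which called 0 of the 72 and 0 of all genes (0.0%). At an unadjusted p under 0.05 it held 2 of the 72 (2.78%) and 3.9% of all genes. The values depended on which host replicate 1 was given. With the hosts as labelled, the median over the set was -0.031 (TR minus WT), with 32 genes positive and 40 negative. With the hosts of replicate 1 exchanged, it was -0.274, with 15 positive and 57 negative, against a median of 0.018 over all genes. Again 0 of the 72 were called, and 1 of the 72 (1.39%) and 4.98% of all genes had an unadjusted p under 0.05. The 2 genes under the labelled hosts were Cox6a2, which is not read further because only WT CD8a+ arrays carried it through the filter, and the complex I core subunit gene Ndufs1. Ndufs1 was at 0.98 ± 0.40 (adjusted p = 0.998) as labelled and at 0.07 ± 0.54 (adjusted p = 0.988) with the hosts exchanged. The 1 gene under the exchanged hosts was Cox4nb, at 0.88 ± 0.35 (adjusted p = 0.913).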

How the data were processed

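Total RNA of sorted cells was hybridised to 12 Illumina MouseRef-8 arrays, 1 per sample, per the labels. The authors deposited the mean intensity of each probe's beads, which GenomeStudio 1.0.6 had written without normalization per the file headers, with a detection score from 0 to 1, a deposited fraction read as 1 minus the detection p-value, and the number of beads. A second table of log2 values, deposited with no stated scale, was used only to check hosts: differences within a set were equal (tolerance 1e-05) for replicate 2 under the same host and for replicate 1 only under the other host's label. No array was moved. Aligner and genome build do not apply to these tables.

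Intensities were corrected by neqc (limma 3.58.1, R 4.3.3, offset 16), quantile-normalized and put on the log2 scale. Probes detected on at least 2 arrays were kept, 14635 of 25697, and the probe with the highest mean stood for each of 10612 genes. Of the 77 genes of the set, 72 have a current symbol and 5 an older one that RefSeq maps to a current gene. Levels of different probes were not compared. Subsets were tested two-sided by limma on all 12 arrays with the set as a fixed block, which left 6 residual degrees of freedom, and Benjamini-Hochberg adjustment over all genes at 0.05. Hosts were tested on 4 set means. The labels do not say that replicates came from separate animals, so p-values measure the spread between these samples, and the number of arrays limits the precision. Deviations of same-numbered arrays from their group means correlated at 0.356 to 0.657 in the 15 pairs of groups, so arrays were treated as paired by number. On simulated data for CD8a+ against ThPOK+ cells with 10612 genes, 43 of 100 genes changed by 1 on the log2 scale and 85 of 100 changed by 2 were recovered, with 3 false calls.

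Named genes, not all of which are printed, were the 2 highest and 2 lowest of each complex in CD8a+ and CD8a- against ThPOK+ cells, complex II, the complex IV isoforms, the c-subunit genes, genes whose probes disagree, genes detected on 0 arrays and up to 2 genes of each other list. A gene of the set is counted but not reported here. Further genes were named after their values were seen. The members, lists and tests were chosen with earlier results of these data known. Alternatives covered background correction, normalization, the detection filter, the probe rule, the block, the arrays fitted, the epithelium covariate and each array left out.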

Additional observations from a re-analysis of the deposited data

Results flagged for a closer look

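For each named gene and each median of a complex, the differences in the 4 sets were searched for 1 set far from the other 3 by Dixon's test at its 95% level. It marked 7 of 105 values, and chance marks about 1 in 20. In CD8a+ against ThPOK+ cells, Cox6b1 differed by 0.32 in the set of WT replicate 2 and by -0.23 to -0.18 in the others, and Ndufs6 by -0.74 in the same set and by -0.03 to 0.07 in the others. In CD8a- against ThPOK+ cells, Sdhc differed by -0.80 in the set of WT replicate 1 and by -0.09 to -0.02 in the others. Between CD8a+ and CD8a- cells, Atp5g3 differed by 0.38 in the set of WT replicate 1 against -0.01 to 0.03, Atp5o, the gene of the stalk protein OSCP, by -1.1 in that of WT replicate 2 against -0.02 to 0.17, and Ndufb7 by -0.29 in that of TR replicate 2 against 0.06 to 0.13. The probe of Atp5o was detected on the 6 arrays of replicate 1 and on 0 of replicate 2, so its -1.1 lay between undetected values. The median of complex IV in this comparison was 0.38 in the set of WT replicate 2 and 0.02 to 0.06 in the others.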

How the results depend on the processing

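The count of 0 genes past the threshold between subsets, between hosts and in the interaction was the same under every alternative run for it. Of 1370 values of 29 named genes under the alternatives, 0 passed, with a smallest limma adjusted p of 0.0897. These 29 were the 2 highest and 2 lowest genes of each complex, with the tested genes of complex II, of the complex IV isoforms and of the c subunit. The sign changes of values larger than their SE, given below, were counted in the same 29. The all-gene count of 60 between CD8a+ and ThPOK+ cells ranged from 0 (only the arrays compared, or replicate 2 alone) to 137 (no background correction), and was 2 without TR ThPOK+ replicate 1, while the count of 6 between CD8a- and ThPOK+ cells ranged from 0 to 49. With no replicate block the medians of the set were 0.029, -0.011 and 0.073 as with it, and the all-gene counts were 19, 3 and 0. With the replicate block on the number alone they were 29, 5 and 0. With 1 array left out, the medians ranged from -0.016 to 0.075 (CD8a+ against ThPOK+), -0.079 to 0.05 (CD8a- against ThPOK+) and 0.006 to 0.119 (CD8a+ against CD8a-). The first was negative only without WT CD8a+ replicate 2, and the second was positive without WT ThPOK+ replicate 1 (0.029), WT CD8a- replicate 1 (0.006), WT CD8a- replicate 2 (0.05) or TR ThPOK+ replicate 2 (0.011). The median between hosts moved from -0.106 to 0.054 with the hosts of replicate 1 exchanged, and that of the interaction from -0.031 to -0.274. Among named values larger than their SE, 5 turned sign, those of Cox7a1 (0.53 in CD8a+ against ThPOK+ cells on replicate 2 alone, and in CD8a- against ThPOK+ cells 0.09 with the epithelium covariate and 0.27 on replicate 2 alone) and of Ndufb11 in CD8a- against ThPOK+ cells (-0.1 with the mean of its probes and -0.21 on replicate 1 alone), genes detected on 3 and 4 of 12 arrays, and the cause was not tested. Smaller values turned as well, such as that of Ndufs4 in CD8a+ against ThPOK+ cells, at 0.09 by the probe used and -0.09, -0.03 and -0.10 by its other probes. Values from the second deposited table were not run, because its probe names are not shared with the intensity table, and log2 raw signals centred on each array's median, chosen after seeing the data, took their place. The fit of every probe alone was also added then. Dim probes limit Ndufab1, Ndufb7, Ndufb11, Cox6a2, Cox7a1, Cox7a2, Uqcrq, Atp5o and Atp5s, each detected on 2 to 7 of 12 arrays.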
